A study of Homo sapiens with 6 samples.

Results

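The membrane-type matrix metalloproteinases (MT-MMPs) and their endogenous inhibitors were followed in MDA-MB-231 cells after depletion of cysteine-rich protein 2 (CRP2), an actin-binding protein encoded by CSRP2. The set was chosen by gene symbol and holds 10 genes of the 58395 in the count table, the 6 MT-MMP genes MMP14, MMP15, MMP16, MMP17, MMP24 and MMP25, the inhibitor genes TIMP1, TIMP2 and TIMP3, and RECK. All 10 were among the 23806 genes with enough counts to be tested. RNA was sequenced in 3 libraries of cells that received an siRNA against CSRP2 (siCRP2) and in 3 libraries of cells that received a non-targeting siRNA (siCTR), harvested 65 h after transfection according to the labels, while the study's methods give a slightly later time. MDA-MB-231 is an established line of invasive, triple-negative breast adenocarcinoma, and all 6 libraries came from the same unmodified line grown in DMEM. Only a single CSRP2 siRNA, siCRP2#a, was sequenced, so an effect of CRP2 loss and an effect of that siRNA on other transcripts cannot be told apart in these libraries. Outside these libraries, the study measured MMP14, MMP15 and MMP16 by quantitative PCR in this line with siCRP2#a and another CSRP2 siRNA. It reported lower mRNA of each. Libraries are named by group and by the code in their column name (0412, 0611 or 1311), which occurs once in each group.

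MMPs are zinc-dependent proteases that are made with an inhibitory prodomain. In MT-MMPs this prodomain is removed inside the cell by furin-like convertases, and the enzyme reaches the surface either with a transmembrane segment and a short cytoplasmic tail (MMP14, MMP15, MMP16 and MMP24) or with a glycosylphosphatidylinositol (GPI) anchor (MMP17 and MMP25). MMP14, also called MT1-MMP, cleaves fibrillar collagen, is delivered to invadopodia (the actin-rich protrusions with which invasive cells degrade matrix) and activates the secreted pro-gelatinase MMP2. TIMPs are secreted proteins that occupy the catalytic site. TIMP2 at low levels also bridges MMP14 and pro-MMP2 during activation, TIMP1 is a weak inhibitor of most transmembrane MT-MMPs, TIMP3 stays bound to the matrix and also inhibits several ADAM proteases, and RECK is a GPI-anchored inhibitor at the cell surface.

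The catalytic centre is described here for the MT-MMP genes. The genes were taken by symbol from the same annotation, so its presence tests nothing about the counts. Translation of the canonical transcripts (GENCODE release 44, GRCh38) found the zinc-binding motif once in each of the 6 MT-MMP genes, at codons 239 to 249 of 582 in MMP14, for example. The coding sequences of 5 of them are shown because they mark what the MT-MMPs share, with the codons of the 3 zinc-binding histidines in capitals.
MMP14: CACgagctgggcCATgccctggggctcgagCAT
MMP15: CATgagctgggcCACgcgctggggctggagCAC
MMP17: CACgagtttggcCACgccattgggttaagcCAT
MMP24: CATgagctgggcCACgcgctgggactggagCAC
MMP25: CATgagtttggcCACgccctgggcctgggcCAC
Over these 33 bases MMP15 and MMP24 were identical at 32 positions, MMP15 and MMP14 at 28, and MMP24 and MMP17 at 20. A basic convertase motif preceded the catalytic domain in all 6 genes. It is shown for MMP14 (codons 108 to 111) and MMP15 (codons 128 to 131), with the 4 codons of the motif in capitals.
MMP14: gccaatgttCGAAGGAAGCGCtacgccatc
MMP15: ctgcggcggCGTCGGAAGCGCtacgccctc
The longest run of bases shared by the canonical transcripts of any 2 of the 10 genes was 26 (MMP24 with MMP14 and with MMP15), which is shorter than the paired-end reads of the study.

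Promoter sequences of RefSeq (GRCh38.p14, 250 bases before to 50 after the gene start) matched 6 of the 10 genes. Those of MMP14 and MMP15 are shown up to the start because both transcripts were lower in siCRP2 cells, with the SP1 motif GGGCGG, on either strand, in capitals. The first lies at chr14:22836335-22836584 and the second at chr16:58025504-58025753, both on the plus strand.
MMP14: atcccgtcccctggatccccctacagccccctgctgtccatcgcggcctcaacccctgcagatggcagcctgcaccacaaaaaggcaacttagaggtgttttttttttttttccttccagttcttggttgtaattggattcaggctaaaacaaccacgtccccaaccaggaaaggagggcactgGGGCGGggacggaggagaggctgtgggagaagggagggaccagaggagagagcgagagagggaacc
MMP15: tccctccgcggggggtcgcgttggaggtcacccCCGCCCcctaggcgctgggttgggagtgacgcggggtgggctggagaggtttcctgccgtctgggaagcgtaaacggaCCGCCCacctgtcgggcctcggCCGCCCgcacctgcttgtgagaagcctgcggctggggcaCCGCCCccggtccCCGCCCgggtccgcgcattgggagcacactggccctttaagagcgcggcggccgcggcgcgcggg
Over the full 300-base windows, GC content was 55.0% for MMP14 and 75.3% for MMP15, against a median of 58.3% over 27305 promoters, and the SP1 motif occurred 1 and 5 times. It was also present in the windows of MMP24 (3 times), TIMP1 (2), TIMP3 (5) and RECK (3), and in 44.6% of all promoters. None of the 6 windows held the AP-1 motif TGANTCA (7.76% of all promoters), the CArG box bound by serum response factor (1.29%) or the TATA motif TATAAA (12%), all searched on both strands. A match is a description of these letters, and a missing one says nothing of elements elsewhere.

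Library totals ran from 18346442 to 39115778 counts in siCRP2 and from 17336798 to 25321830 in siCTR, so 1 count was worth 0.0256 to 0.0582 CPM, the count scaled to library size that is used throughout. CSRP2 stood at 2.17, 1.78 and 1.89 CPM in siCRP2 and at 13.7, 11.7 and 11.4 CPM in siCTR (codes 0412, 0611 and 1311), a log2 fold change of -2.66 (SE 0.18), as the labels state. Markers of the line were abundant (VIM 1357 to 1937 CPM in siCRP2 and 1430 to 2262 in siCTR), PGR was at 0 and ESR1 at no more than 0.0529 CPM. The remaining markers of epithelium, CDH1 among them, were not near 0 in either group. AXL, a mesenchymal marker of the line, was at 229 to 293 CPM in siCRP2 and 481 to 607 CPM in siCTR, and CDH1, the epithelial cadherin, at 26.8 to 37.5 CPM in siCRP2 and 14.3 to 21.0 CPM in siCTR. No other marker of the line or of epithelium differed at an adjusted p under 0.05 in edgeR, VIM among them (0.71). AXL and CDH1 are thus single genes of their lists, and a shift of cell state was not tested. The 9 markers of leukocytes, endothelium and fibroblasts summed to 24.2 to 27.0 CPM in siCRP2 and 65.3 to 81.7 CPM in siCTR, most of it from CD14, PECAM1 and PDGFRB, with CD3E and DCN at no more than 1 count in any library. These markers thus moved with the groups in the same direction as MMP14, and their part in the results below was not tested. In bulk RNA, fewer cells of a kind and less RNA per cell cannot be told apart.

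Of the 10 genes, 5 were lower in siCRP2 cells at an adjusted p under 0.05 and 0 were higher (edgeR's quasi-likelihood test, Benjamini-Hochberg adjustment over all genes). DESeq2 and edgeR's exact test also called 0 higher, and 1 gene, MMP24, was higher at an unadjusted p under 0.05. Among all genes tested 11.5% were lower and 12.5% higher by the same rule. Of 11750 protein-coding genes whose mean reached 1 CPM, 2136 were lower and 2785 higher, which are larger shares. The lower genes were the transmembrane MT-MMP genes MMP14, MMP15 and MMP16 and the inhibitor genes TIMP3 and RECK. Only MMP15 and MMP16, 2 of 10, were also past a 2-fold change, against 4.51% of all genes. The 3 siCRP2 libraries did not overlap the 3 siCTR libraries in 6 of the 10 genes (those 5 and TIMP2), against 37.4% of all genes. The median log2 fold change of the 10 genes was -0.56, and that of all genes tested was -0.02.

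**Figure D1:**
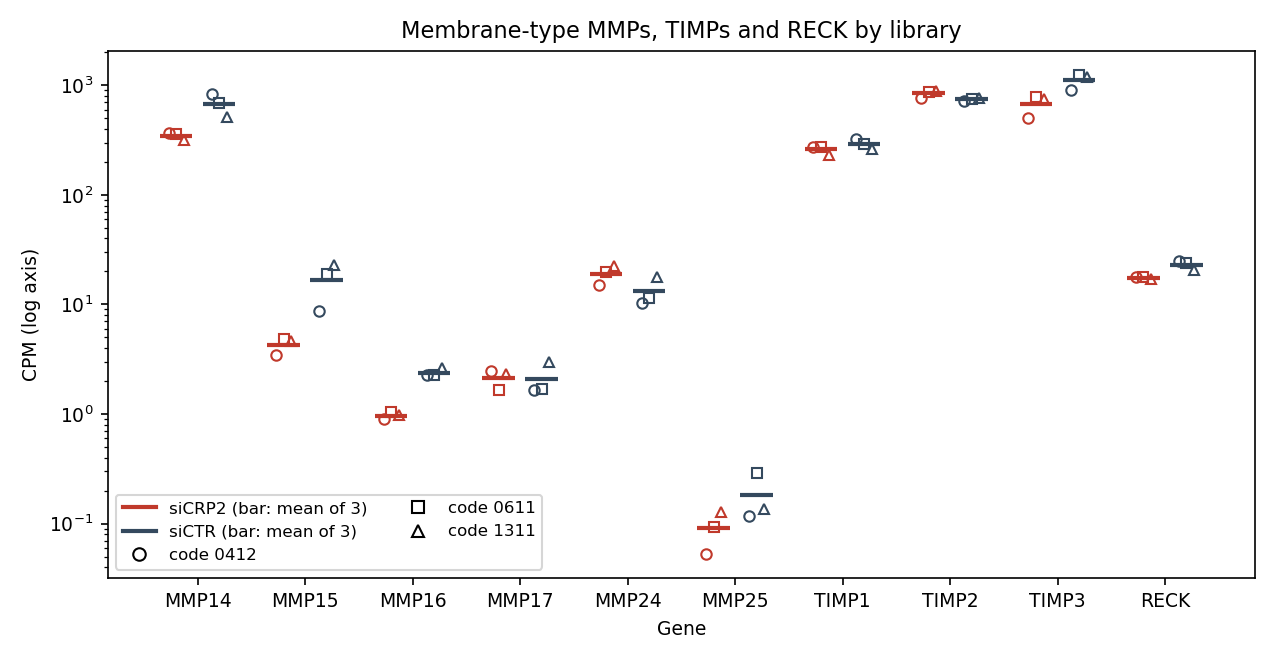
CPM (vertical log axis) of the 10 genes in each library, siCRP2 in red left of siCTR in dark blue, with marker shape for the code and a bar for the mean of 3 libraries. MMP14, MMP15, MMP16, TIMP3 and RECK sit lower in all 3 siCRP2 libraries, and MMP15 spans 8.65 to 22.7 CPM among the siCTR libraries.

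MMP14 (ENSG00000157227, chr14:22836560-22849041, plus strand) was by far the most abundant MT-MMP transcript. It stood at 368, 362 and 315 CPM in the siCRP2 libraries and at 842, 688 and 517 CPM in the siCTR libraries (codes 0412, 0611 and 1311). All siCRP2 libraries lay below all siCTR libraries, and in both groups the library coded 0412 was the highest and 1311 the lowest. The siCTR libraries spread more (SD 0.35 on the log2 scale, n = 3) than the siCRP2 libraries (SD 0.12, n = 3). The log2 fold change was -0.97 (SE 0.17, adjusted p = 0.0033 in edgeR), which is a level of 0.510 of siCTR with a 95% interval of 0.391 to 0.665. This call held in each of the 15 alternatives tried, with log2 fold changes of -1.14 to -0.79.

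MMP15 (MT2-MMP, ENSG00000102996, chr16:58025754-58046901, plus strand) had the lowest fold change of the set. Its values were 3.44, 4.79 and 4.61 CPM in siCRP2 and 8.65, 18.9 and 22.7 CPM in siCTR in the same order of codes. The groups did not overlap, but here the library coded 0412 was the lowest of each group, the reverse of MMP14, and the siCTR libraries had an SD of 0.73 on the log2 scale (n = 3). The log2 fold change was -1.95 (SE 0.39, adjusted p = 0.017 in edgeR), with an interval for the level of 0.132 to 0.508 of siCTR. Leaving out any single siCRP2 library ended the call (adjusted p = 0.070 without 0412, 0.052 without 0611 and 0.079 without 1311 in edgeR), with log2 fold changes of -1.84, -2.06 and -2.04.

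MMP16 (MT3-MMP, ENSG00000156103, minus strand of chromosome 8, 88032011 to 88328025) was a low transcript that varied little within groups. It had 17, 22 and 38 counts (0.899, 1.03 and 0.973 CPM) in siCRP2 and 57, 39 and 58 counts (2.25, 2.27 and 2.65 CPM) in siCTR. Every siCTR library held more than 2-fold the CPM of every siCRP2 library. The log2 fold change was -1.30 (SE 0.26, adjusted p = 0.0013 in edgeR), and it passed in each of the 15 alternatives (-1.37 to -1.19).

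MMP24 (MT5-MMP, ENSG00000125966, chr20:35226690-35276998, plus strand), the fourth transmembrane member and one studied mainly in neurons, did not share this direction. It had 15.1, 19.9 and 22.2 CPM in siCRP2 and 10.4, 11.5 and 17.9 CPM in siCTR, so that siCTR library 1311 lay above siCRP2 library 0412. The log2 fold change was 0.53 (SE 0.22, adjusted p = 0.12 in edgeR, 95% interval 0.04 to 1.02), short of the threshold. With the libraries paired by code, adjusted p was 7.3e-07 in edgeR and 1.7e-05 in limma voom, and without siCTR library 1311 it was 0.0010 at a log2 fold change of 0.81. MMP24 shares 806 exonic bases with the antisense gene MMP24OS, which had more counts (1574 to 3481 in siCRP2 and 2509 to 3741 in siCTR) and a log2 fold change of -0.67. The study's methods name a stranded library kit. Whether the authors' counting separated the strands is not given in the sources used here, so the value of MMP24 is uncertain where the genes overlap.

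The GPI-anchored members were scarce and neither passed. MMP17 (MT4-MMP, ENSG00000198598, chr12:131828393-131851783, plus strand) had 2.49, 1.64 and 2.30 CPM in siCRP2 and 1.66, 1.69 and 2.97 CPM in siCTR. The groups overlapped almost fully, with a log2 fold change of 0.03 (adjusted p = 0.96 in edgeR) and an interval of -0.57 to 0.62. That interval still allows a change of about the size seen in RECK in either direction. MMP25 (MT6-MMP, ENSG00000008516, chr16:3046062-3060726, plus strand), a protease known from neutrophils, had 1, 2 and 5 counts in siCRP2 and 3, 5 and 3 counts in siCTR. No difference was detectable at this depth (log2 fold change -0.77, interval -2.25 to 0.71, adjusted p = 0.48 in edgeR), and MMP25 shares 1454 exonic bases with the antisense gene MMP25-AS1, which had 38 to 136 counts in siCRP2 and 72 to 117 in siCTR.

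TIMP3 (ENSG00000100234, chr22:32801705-32863041, plus strand) was the inhibitor gene with the lowest fold change. It had 499.9, 778 and 747 CPM in siCRP2 and 913, 1250.0 and 1192 CPM in siCTR. The groups did not overlap, and the library coded 0412 was the lowest of each group, as for MMP15. The log2 fold change was -0.73 (SE 0.20, adjusted p = 0.039 in edgeR), a level of 0.604 of siCTR with an interval of 0.435 to 0.838. The call was lost without siCTR library 0611 (adjusted p = 0.094, log2 fold change -0.64) and without siCTR library 1311 (adjusted p = 0.15, -0.68). TIMP3 lies inside SYN3, a gene on the opposite strand with which it shares no exonic base and whose counts did not exceed 2 in any library.

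RECK (ENSG00000122707, chr9:36036913-36124455, plus strand) had 17.8, 17.9 and 17.2 CPM in siCRP2 and 24.7, 24.1 and 20.5 CPM in siCTR. It was the steadiest gene of the set in siCRP2 (SD 0.03 on the log2 scale, n = 3), and the groups did not overlap. The change was small, with a log2 fold change of -0.39 (SE 0.12, adjusted p = 0.023 in edgeR) and an interval for the level of 0.642 to 0.908 of siCTR. Without siCRP2 library 1311, siCTR library 0412 or siCTR library 0611 the adjusted p was 0.074, 0.062 and 0.093, with log2 fold changes of -0.39, -0.34 and -0.36.

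TIMP1 and TIMP2 did not pass, in opposite directions. TIMP1 (ENSG00000102265, chrX:47582408-47586789, plus strand) had 275, 275 and 233 CPM in siCRP2 and 321, 289 and 264 CPM in siCTR, with overlap between the groups and a log2 fold change of -0.16 (SE 0.10, adjusted p = 0.27 in edgeR, interval -0.36 to 0.04). TIMP2 (ENSG00000035862, chr17:78852977-78925387, minus strand) had 771, 874 and 886 CPM in siCRP2 and 725, 744 and 765 CPM in siCTR. Its groups did not overlap, though the gap between siCRP2 library 0412 and siCTR library 1311 was narrow, and the log2 fold change was 0.18 (SE 0.09, adjusted p = 0.16 in edgeR, interval -0.01 to 0.37). A 2-fold change of either gene lies outside these intervals. TIMP1 lies inside SYN1, on the opposite strand, with which it shares no exonic base, and TIMP2 shares 224 exonic bases with CEP295NL, which had at most 4 counts in any library. With the libraries paired by code both passed, TIMP1 as lower (adjusted p = 0.033 in edgeR and 0.016 in limma voom) and TIMP2 as higher (0.016 in edgeR and 0.00099 in limma voom), with log2 fold changes that stayed at -0.16 and 0.18.

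**Figure D2:**
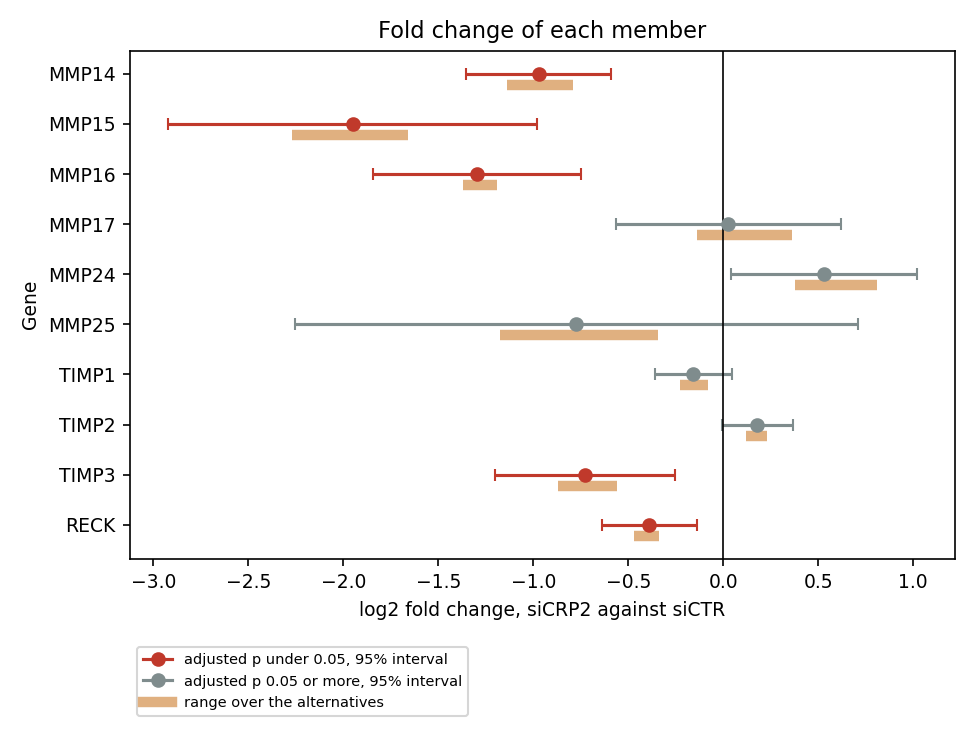
Log2 fold change of siCRP2 against siCTR (horizontal axis) for each gene, with its 95% interval from the edgeR fit in red (adjusted p under 0.05) or grey, and the range over the alternatives as a tan bar below it. MMP14, MMP15, MMP16, TIMP3 and RECK lie below 0 with their intervals, TIMP2 at 0.18 and MMP24 at 0.53 lie above it.

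Pairing the libraries that share a code showed how far the genes differed between codes. The log2 ratio of siCRP2 over siCTR was negative in all 3 codes for MMP14 (-1.20, -0.93 and -0.71), MMP15 (-1.31, -1.96 and -2.28), MMP16 (-1.25, -1.08 and -1.37), TIMP3 (-0.87, -0.68 and -0.67), RECK (-0.47, -0.43 and -0.25) and TIMP1 (-0.23, -0.07 and -0.18), in the order 0412, 0611 and 1311. It was positive in all 3 for MMP24 (0.54, 0.79 and 0.31) and TIMP2 (0.09, 0.23 and 0.21), and mixed for MMP17 (0.56, -0.04 and -0.36). MMP14 was furthest from siCTR in code 0412 and MMP15 in code 1311. When the code entered the fit as a block, 6 of the 10 genes were lower and 2 higher in edgeR and in limma voom. The same edgeR fit called 4229 of all 23806 genes lower and 4644 higher. In the edgeR fit the block left each gene with the spread of all genes (19157 to 47612 degrees of freedom for these genes), so its p-values rest on that sharing. The limma voom fit also borrowed spread across genes (17.0 to 132 degrees of freedom for these genes), so its p-values are no independent check.

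**Figure D3:**
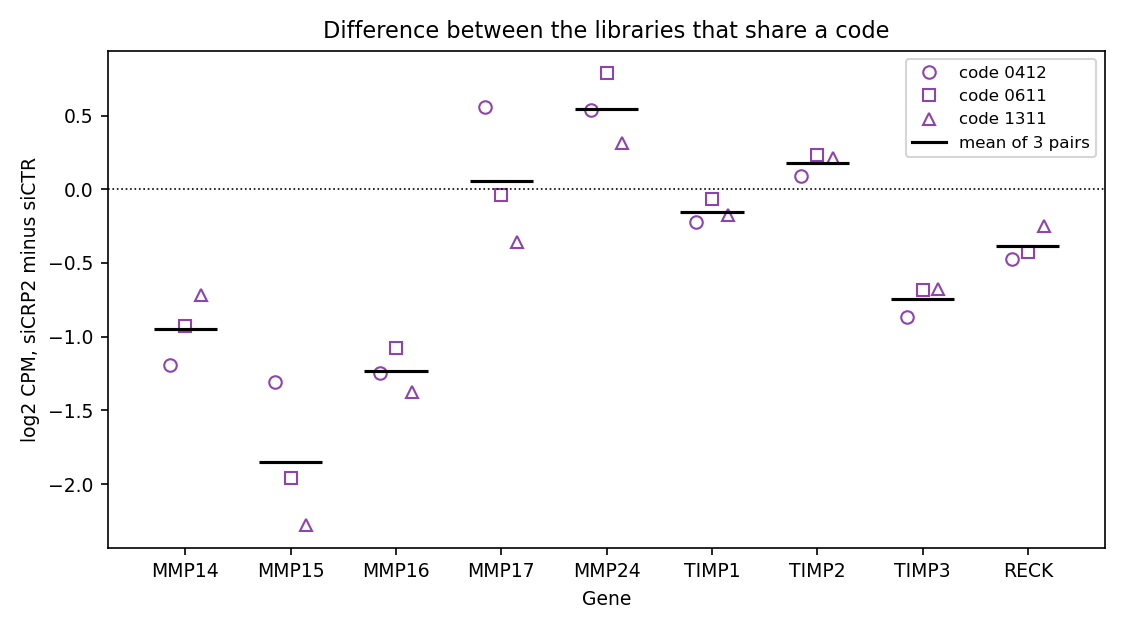
Difference in log2 CPM between the siCRP2 and the siCTR library of the same code (vertical axis) for 9 genes, with marker shape for the code and a line for the mean of the 3 pairs. MMP25 is left out because of its few counts. MMP17 is the gene whose pairs lie on both sides of 0, from -0.36 to 0.56.

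Levels of different genes were compared as TPM, which divides each count by the exonic length of the gene and scales every library to the same sum. Among MT-MMPs, MMP14 made up 90.9% to 94.1% of the summed TPM in siCRP2 and 91.5% to 97.3% in siCTR. In siCRP2 the order of mean TPM was TIMP1 (753 ± 78.5), TIMP3 (611 ± 131), TIMP2 (566 ± 34.9), MMP14 (314 ± 30.3), MMP24 (18.2 ± 3.19), RECK (13.2 ± 0.454), MMP15 (4.21 ± 0.675), MMP17 (2.24 ± 0.475), MMP16 (0.333 ± 0.0205) and MMP25 (0.0801 ± 0.0319; SD, n = 3 each). In siCTR it was TIMP3 (1011 ± 159), TIMP1 (838 ± 89.7), MMP14 (614 ± 151), TIMP2 (499 ± 9.33), RECK (17.2 ± 1.85), MMP15 (16.4 ± 7.02), MMP24 (12.6 ± 3.71), MMP17 (2.19 ± 0.757), MMP16 (0.821 ± 0.0701) and MMP25 (0.160 ± 0.0836; SD, n = 3 each). Neighbours whose libraries overlapped were TIMP1 with TIMP3 and TIMP3 with TIMP2 in siCRP2, and TIMP3 with TIMP1, TIMP1 with MMP14, MMP14 with TIMP2, RECK with MMP15 and MMP15 with MMP24 in siCTR. The places of TIMP3 and MMP14 depended on the length used. With the length of the canonical transcript, an alternative chosen after the data were seen, TIMP1 led in both groups (812 TPM in siCRP2 and 901 in siCTR), and TIMP3 fell to 350.0 TPM in siCRP2 and 578 TPM in siCTR, below the 552 TPM of TIMP2 in siCRP2. MMP14 was then at 225 TPM in siCRP2 and 439 TPM in siCTR, below the 485 TPM of TIMP2 in siCTR, although the libraries of MMP14 and TIMP2 overlapped there with either length.

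The ratio of MMP14 to each inhibitor was taken within a library, as a description with no test. MMP14 over TIMP2 was 0.641, 0.556 and 0.477 in siCRP2 and 1.56, 1.24 and 0.907 in siCTR, with no overlap, and MMP14 over TIMP1 was 0.419, 0.411 and 0.422 in siCRP2 and 0.820, 0.745 and 0.612 in siCTR, again with no overlap. MMP14 over TIMP3 was 0.731, 0.462 and 0.419 in siCRP2 and 0.917, 0.547 and 0.431 in siCTR, so the groups overlapped, although the siCRP2 library was the lower of each code. TIMP2 over TIMP3 was 1.14, 0.832 and 0.879 in siCRP2 and 0.588, 0.441 and 0.475 in siCTR. The summed TPM of the 6 MT-MMPs over that of the 3 TIMPs was 0.161 to 0.200 in siCRP2 and 0.216 to 0.348 in siCTR. The size of these ratios also depended on the length. With the canonical transcript length, MMP14 over TIMP2 was 0.471, 0.408 and 0.350 in siCRP2 and 1.15, 0.912 and 0.666 in siCTR, so that 1 siCTR library in place of 2 lay above 1. MMP14 over TIMP1 was 0.273 to 0.280 in siCRP2 and 0.407 to 0.545 in siCTR, and TIMP2 over TIMP3 was 1.41 to 1.94 in siCRP2 and 0.749 to 0.999 in siCTR. Which ratios overlapped between the groups was the same with both lengths. These are ratios of transcripts and say nothing of the amounts of active enzyme or free inhibitor.

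**Figure D4:**
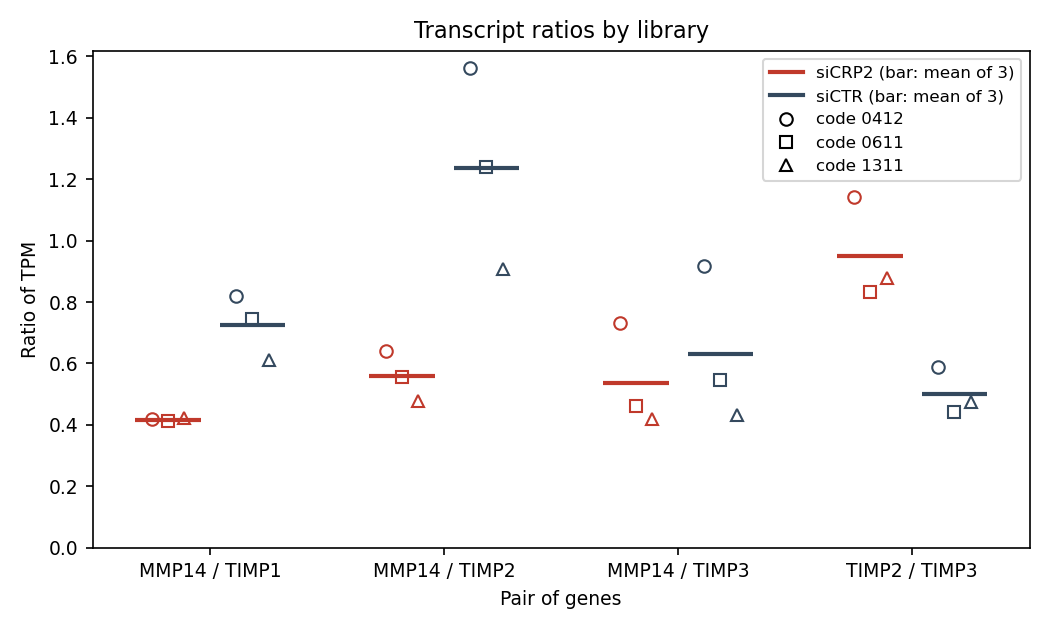
Ratio of TPM between pairs of genes (vertical axis, from 0) in each library, siCRP2 in red left of siCTR in dark blue, with marker shape for the code and a bar for the mean of 3. MMP14 over TIMP2 stays at or below 0.641 in siCRP2 and at or above 0.907 in siCTR, while MMP14 over TIMP3 overlaps.

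Genes that act with MT-MMPs and TIMPs were read from 5 lists, whose counts are to be read beside the 11.5% of all genes that were lower and the 12.5% that were higher. Those shares were larger among expressed protein-coding genes, as given above. Counts from the blocked fits belong beside the larger shares of those fits. Of all 23806 genes, edgeR with the block called 4229 lower and 4644 higher, and limma voom 4402 lower and 4595 higher. FURIN encodes the convertase that removes the prodomain, and its transcript fell to 35.8 ± 5.29 CPM in siCRP2, against 116 ± 17.7 CPM in siCTR (SD, n = 3 each; log2 fold change -1.69, SE 0.13). PCSK7, another convertase, was at 40.8 ± 6.46 CPM in siCRP2 and 41.5 ± 3.03 CPM in siCTR (log2 fold change -0.02). FURIN was the only 1 of the 4 convertase genes to pass, and the other 2, PCSK5 and PCSK6, had 6 and 4 counts in siCRP2 in all and 17 and 6 in siCTR. Of 14 surface partners and substrates of MT1-MMP, 5 were lower and 1 was higher (median -0.18). The blocked fits called 8 lower and 1 higher, and 3 were lower without siCRP2 library 1311 or without siCTR library 0611. BSG (EMMPRIN, an inducer of MMPs) was at -1.67, DDR1, a collagen receptor shed by MMP14, at -0.93, BCAM, a laminin receptor, at -0.73, ITGB1, the integrin beta 1 subunit, at -0.41 and BST2 (tetherin) at -0.40 on the log2 scale, and the tetraspanin gene CD81 at 0.28. The call of CD81 was lost with upper quartile factors and when any library but siCTR library 0412 was left out. CD44, which MMP14 binds and sheds, had a log2 fold change of -0.18 and did not pass (adjusted p = 0.18 in edgeR).

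Of 19 genes of the vesicle traffic that carries MT1-MMP, 3 were lower and 1 was higher (median 0.13), shares close to or below those of all genes. The blocked fits, which also called larger shares of all genes, called 5 lower and 5 higher in edgeR and in limma voom. The kinesin gene KIF3B was at -0.57, the SNARE gene STX4 at -0.45 and the exocyst gene EXOC7 at -0.26, while the exocyst gene EXOC8 was at 0.40. RAB8A, RAB7A and VAMP7, which move MT1-MMP vesicles, had log2 fold changes of -0.18, 0.13 and 0.16, and none passed in the fit without the block. Of 11 secreted MMP genes with enough counts, MMP1, MMP9 and MMP13 were lower and MMP19 was higher. MMP1, the interstitial collagenase, was at 5.45 ± 0.464 CPM in siCRP2 and 15.9 ± 4.44 CPM in siCTR, and MMP19 at 9.16 ± 0.541 CPM in siCRP2 and 4.37 ± 0.328 CPM in siCTR (SD, n = 3 each). The gelatinase gene MMP9 had 4 counts in siCRP2 and 16 in siCTR in all, and the collagenase gene MMP13 had 3 in siCRP2 and 46 in siCTR. Only 2 secreted MMP genes were lower in DESeq2, with edgeR's expression filter, after thinning and when any single library was left out. The list had a median of -1.05, or -0.79 with MMP10, which had no count in siCRP2 and 4 in siCTR, set to the floor of 3 counts over the group. MMP2, the proenzyme that MMP14 activates, had 26 counts in siCRP2 and 38 in siCTR in all and did not pass (log2 fold change -0.79, adjusted p = 0.27 in edgeR). Of 6 other targets and relatives of TIMPs tested, 2 were lower, and 5 were lower in the blocked fits. KDR, the receptor for vascular endothelial growth factor that TIMP3 binds, was at -0.99, and TIMP4, the remaining TIMP, stood at 2.28 ± 1.07 CPM in siCRP2 and 9.44 ± 3.61 CPM in siCTR (SD, n = 3 each; log2 fold change -1.99, SE 0.43, adjusted p = 0.017 in edgeR). ADAM10 and ADAM17, sheddases that TIMP3 inhibits, had log2 fold changes of -0.21 and -0.12 and did not pass in the fit without the block.

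**Figure D5:**
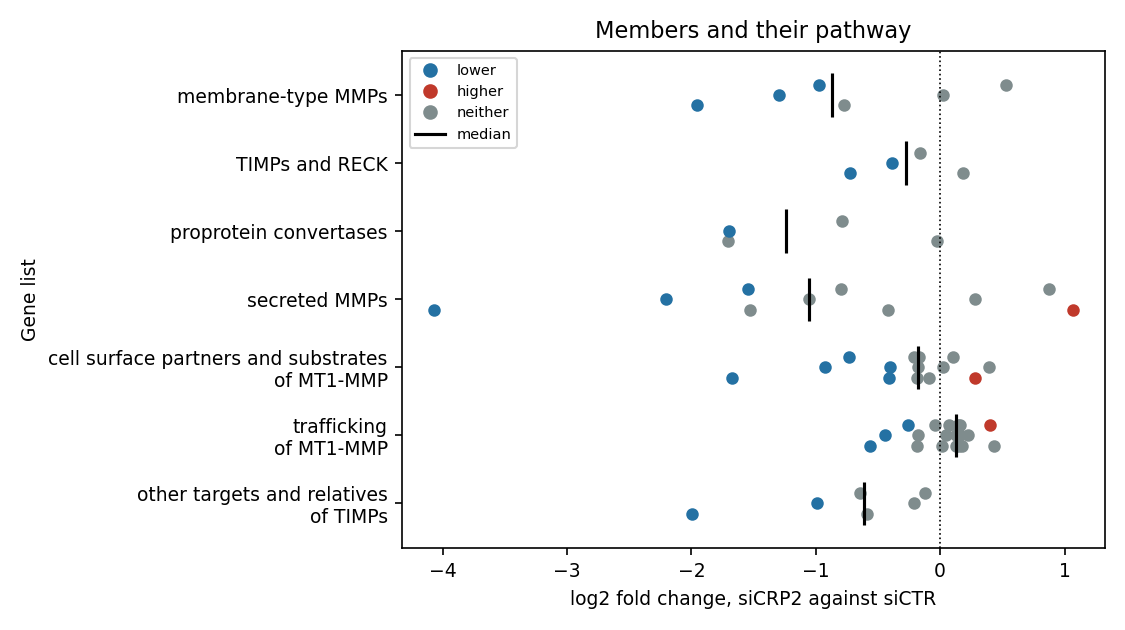
Log2 fold change of siCRP2 against siCTR (horizontal axis) for the genes of 7 lists, blue where lower, red where higher and grey where neither at an adjusted p under 0.05, with the median of each list as a black line and points spread vertically for legibility. MMP10, with no count in siCRP2, is not drawn but is in the median. The median of the MT-MMPs is -0.87 and that of TIMPs and RECK -0.27.

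The genes closest in pattern were found by the root mean square difference of log2 CPM over the 6 libraries, after centring each gene, among the 10446 protein-coding genes whose mean reached 5 CPM. They were HMGA1, BTN3A2 and TOX2 for MMP14 (differences of 0.047 to 0.058), CSF1, PAQR8 and ID1 for MMP15 (0.16 to 0.17), CYP2U1, CCDC85B and RAB11FIP5 for MMP16 (0.030 to 0.044), ACKR3, SLCO3A1 and PELI3 for TIMP3 (0.046 to 0.063) and XRN1, ACBD5 and CGGBP1 for RECK (0.029 to 0.041). None of these is a gene of the set, but MMP16, MMP17 and MMP25 lay below 5 CPM and could not be found. By the same measure MMP14 lay 0.79 from MMP15 and 0.32 from MMP16, and RECK lay 0.13 from TIMP1. MMP15 thus had the loosest match of the called genes, and MMP14 and MMP15 were further from each other than either was from MMP16.

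The heptamer GCCTCAC was picked in earlier work on these same data because transcripts that carry it were lower, so its shares are a description. It was present in the canonical transcripts of 47.2% of 2136 lower, 11.8% of 2785 higher and 22.2% of 6829 other protein-coding genes whose mean reached 1 CPM. Of the 5 lower genes of the set, MMP16, TIMP3 and RECK held none, and it also occurred in genes of the set that were not called lower. Its part in any change of the set was not tested.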

How the data were processed

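The authors isolated RNA from transfected MDA-MB-231 cells, prepared TruSeq mRNA libraries, aligned paired-end reads with STAR to GRCh38 (the submitters' processing notes name GRCh38 and hg38) and deposited raw counts per Ensembl gene. The library kit is described as stranded in the study's methods. For the STAR version, annotation and strand setting of the counts nothing was given in the sources used here. Columns were assigned to groups by name, and no other column of per-sample values was present. The set and the lists were chosen with earlier results of these data known.

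Genes counted in 2 or more libraries of either group (23806 of 58395) were scaled by TMM and tested in edgeR 4.0.16 (R 4.3.3) with the quasi-likelihood test (robust setting) for siCRP2 over siCTR, with Benjamini-Hochberg adjustment over all genes tested. SEs were derived from F and the fold change. CPM used TMM-scaled totals, log2 CPM a prior count of 2. Symbols, positions and lengths came from GENCODE 44, which held 57754 of the genes. Named genes are the 10 members, up to 4 genes per list by smallest p (counts of 5 or fewer in full), overlapping genes, and 3 nearest patterns per called member; the unpassed list genes named beside them (PCSK7, CD44, RAB8A, RAB7A, VAMP7, MMP2, MMP10, ADAM10, ADAM17) were chosen after their values were seen.

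Libraries of a group are labelled replicates, called biological by the study, and p-values measure the spread between them. Libraries with the same code deviated together from their group means (correlation across 9629 genes 0.735, 0.479 and 0.759, against at most 0.122 for different codes), so the code was also used as a block. Deviations within a group cancel for each gene, so the centring lowers the values for different codes and they are no neutral baseline. Alternatives were other scalings, filters, DESeq2 1.42.0, edgeR's exact test (the study's stated test), thinning, left-out libraries and the block, also in limma 3.58.1. On simulated data for this comparison (22750 genes) 96 of 100 genes changed by 1 and 100 of 100 changed by 2 on the log2 scale passed, with 6 unchanged genes. Changes were planted only in genes with more counts than MMP16, MMP17 and MMP25. The simulated spread followed the trend over all genes, with no effect of code. Recovery for the genes of the set was therefore not measured. Motif sites in single transcripts and a marker gene are not reported here.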

Additional observations from a re-analysis of the deposited data

How the results depend on the processing

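MMP14 and MMP16 kept direction and call in all 15 alternatives, and MMP15, RECK and TIMP3 in 12, 12 and 13. Scaling (RLE, upper quartile), DESeq2, the exact test, edgeR's expression filter and thinning left 5 of the 10 genes lower and 0 higher. Fits with the replicate block by code gave 6 lower and 2 higher in edgeR and in limma voom (chosen after seeing the data), with 4229 and 4402 of all genes lower and 4644 and 4595 higher. Without a low-count filter 1 gene, MMP24, was higher (log2 fold change 0.51, adjusted p = 0.0021). With a library left out, 3 to 4 of the set were lower and 0 to 1 higher, and 2048 to 2888 of all genes were lower and 1933 to 3128 higher. For MMP17, which never passed, the sign turned with upper quartile factors (-0.0253), edgeR's expression filter (-0.0250) and limma voom (-0.00432), and its value ran from -0.14 to 0.36 with a library left out. DESeq2 gave MMP25 no adjusted p, and the expression filter removed it. The cause of these differences was not tested. With 1 siRNA and 3 libraries a group, the 95% intervals of the fold change ran from 0.779 to 1.03 for TIMP1 and from 0.996 to 1.29 for TIMP2, and from 0.675 to 1.53 for MMP17, which had fewer counts.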
